A study of Mus musculus with 6 samples.

Results

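Gdpd3 and 9 other genes of lysophospholipid metabolism and signaling were followed in the osteogenic transcriptome of mesenchymal stem cell (MSC) cultures from mice labelled as controls or as conditional knockouts of Pcif1. The 10 genes were chosen by symbol, with earlier results of the same genotype comparison known, and each matched 1 row of the count table, which holds 20071 Ensembl IDs. They comprise 5 genes of the glycerophosphodiester phosphodiesterase (GDPD) family (Gdpd1, Gdpd2, Gdpd3, Gdpd5 and Gde1), the secreted lysophospholipase D gene Enpp2, the receptor genes Lpar1, Lpar4 and Lpar6, and the phosphatase gene Plpp3. Because the choice used the contrast between genotypes, the differences of these 10 genes are given as a description, without p-values. Of the GDPD genes, Gdpd1 and Gdpd3 encode lysophospholipase D enzymes, while Gdpd2, Gdpd5 and Gde1 encode enzymes best known for other substrates.

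Lysophosphatidic acid (LPA) is a lipid signal made outside the cell by autotaxin, the product of Enpp2, which cleaves the head group from lysophosphatidylcholine. GDPD1 and GDPD3 carry out the same kind of cleavage inside the cell. LPA acts on G protein-coupled receptors of separate families, to which LPAR1 on one side and LPAR4 and LPAR6 on the other belong, and is inactivated by lipid phosphate phosphatases such as PLPP3. In bone, LPA receptor signaling is known to act on osteoblasts, on their precursors and on osteoclasts.

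The cells were MSCs cultured from femurs of 6-week-old C57BL/6J mice, in 3 libraries from Pcif1fl/fl mice (controls, WT), which carry floxed but intact alleles, and 3 from Prrx1-Cre;Pcif1fl/fl littermates (knockouts, CKO). Prrx1-Cre is active in limb bud mesenchyme, and Pcif1 was not measured by cell type in these cultures. All cultures were kept for 7 days in osteogenic medium, which contained dexamethasone (100 nM), β-glycerophosphate (5 mM) and ascorbic acid (50 μg/mL), and poly(A) RNA was sequenced. The series description speaks of duplicates, whereas the labels and the table give 3 numbered libraries per genotype. No label ties them to separate mice or cultures, so each SD over n = 3 measures the spread between these libraries, which may be partly technical.

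Libraries held between 20258209 and 28227696 counts. Pcif1 itself had a mean of 41.3 CPM (SD 1.79, n = 3) in control and 38.9 CPM (SD 1.01, n = 3) in knockout libraries, which overlapped, and whole-gene counts do not show the deleted exons (CPM are counts scaled to a common library size). Xist was at 232 to 443 CPM in the controls and at 0.722 to 1.79 CPM in the knockouts, and 4 Y-linked genes were counted in every library, at higher means in the knockouts, so that a difference in the sex of the cells and genotype cannot be told apart. Pcif1fl/fl replicate 3 stood apart, with 3.63% of its counts from mitochondrial genes against 1.40% to 1.57% in the other libraries. All 12 marker genes of mesenchymal stromal cells and osteoblasts passed the expression filter, among them Prrx1 and Col1a1, and several of them differed with genotype, as given with the other markers. Macrophage markers were abundant as well, all 10 of 10 passing, with a summed level of 27872 to 29980 CPM in the controls and 27384 to 30833 CPM in the knockouts, most of it from Lyz2.

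PCIF1 methylates messenger RNAs whose first transcribed base is an adenosine, so the annotated starts of the genes are shown before their levels. RefSeq (GRCm38.p6) gave 11 starts for 8 of the 10 genes, all but Enpp2 and Gdpd5. Among those 8, the starts of the 4 genes furthest apart between genotypes follow, 5′ to 3′, with 20 bases before the start and 10 from it, and the first base of the transcript in capitals. They lie at chr7:126766394-126766423 on the plus strand for Gdpd3, at chrX:100729827-100729856 and chrX:100730166-100730195 on the plus strand for the starts a and b of Gdpd2, at chr4:105157327-105157356 on the plus strand for Plpp3 and at chrX:106920605-106920634 on the plus strand for Lpar4.
Gdpd3: gctcggccccgggcatcagaGccctttggg
Gdpd2 start a: ggcctcctagagccaggacaAagccctcag
Gdpd2 start b: ctgcgggcttgcttgctcacTgtgtaaaag
Plpp3: cgctcgtgaaatataagctcAgaaaacaaa
Lpar4: atttcctattgagacccccaAgagttcccc

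The annotated start of Gdpd3 is a G, and an A opens Plpp3, Lpar4 and 1 of the starts of Gdpd2. Of the 11 starts of these genes 3 were an A, and 34.4% of the 32851 RefSeq starts used here were. The RefSeq start of Gdpd3 lies inside the gene bounds of GENCODE given with its levels. These are annotated positions, which gene-level counts neither test nor place, and methylation was not measured in these libraries.

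Gdpd3 (ENSMUSG00000030703, chromosome 7, 126766334 to 126775649 of GRCm38), the gene of an intracellular lysophospholipase D, was scarcely counted in the control cultures and clearly counted in the knockout cultures, which hold macrophage RNA as well as stromal RNA. It had 20, 14 and 15 counts in Pcif1fl/fl replicates 1 to 3, or 0.874, 0.515 and 0.538 CPM. In the 3 knockout libraries it had 281, 251 and 264 counts, or 12.6, 12.5 and 12.7 CPM. Every knockout library lay above every control library, and the knockout libraries were almost level with each other. The ratio of the means was 19.6, with a log2 fold change of 4.31 (SE, standard error of the fit, 0.21), the highest of the 13733 genes that passed the expression filter. Relative to those genes, Gdpd3 moved from the 3.92 percentile of mean level in controls to the 37.2 percentile in knockouts. Antisense annotation covers 13.6% of its exonic bases, and whether the counting used strand is not given in the sources used here.

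**Figure D1:**
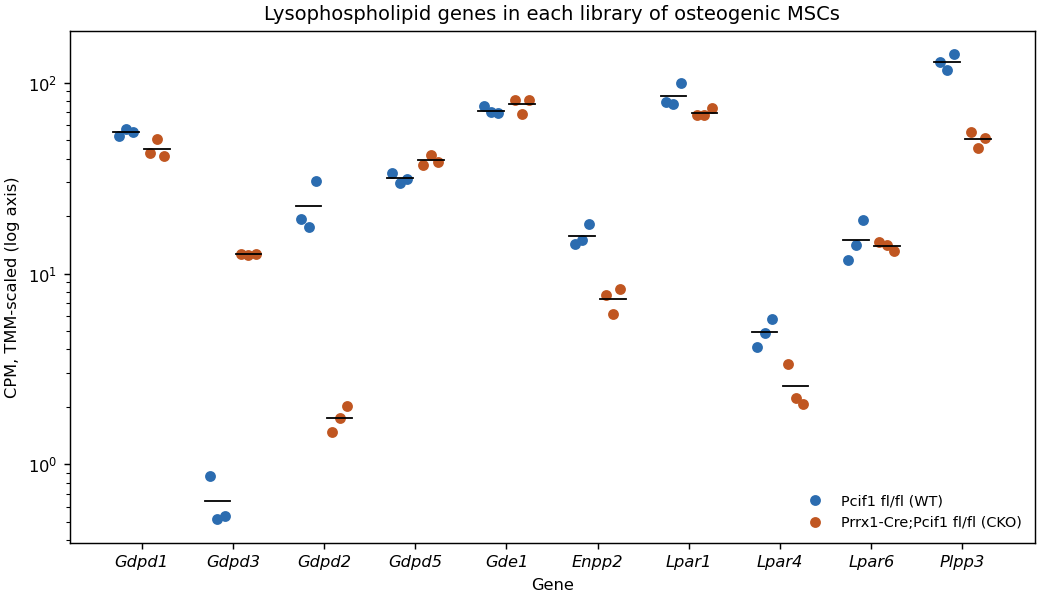
Level of each gene in CPM on a log axis, with 1 point per library (3 per genotype, controls blue and knockouts orange) and the mean as a line. Gdpd3 sits between 12.5 and 12.7 CPM in the knockouts and under 1 CPM in the controls, Gdpd2 shows the opposite order, and the libraries of Gde1 and Lpar6 overlap between genotypes.

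Gdpd1, which encodes the closest functional relative of GDPD3, was present in both genotypes. Its level was 52.5, 57.0 and 55.4 CPM in control replicates 1 to 3 and 42.8, 50.5 and 41.0 CPM in knockout replicates 1 to 3, so the knockouts were lower without overlap. The log2 fold change was -0.30 (SE 0.11), a small difference beside that of Gdpd3. Levels of different genes were compared per kilobase of exonic sequence. On that scale Gdpd3 made up 0.955% to 1.75% of the summed level of Gdpd1 and Gdpd3 in controls and 20.9% to 24.9% in knockouts. The sum itself was 23.8 ± 0.887 CPM per kb (SD, n = 3) in controls against 24.9 ± 2.10 CPM per kb (SD, n = 3) in knockouts, and its libraries overlapped between genotypes.

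Gdpd2 (chromosome X, 100729873 to 100738895), whose product GDE3 is a membrane phosphodiesterase first known from differentiating osteoblasts, went the other way. Control replicates 1 to 3 had 19.3, 17.6 and 30.5 CPM, and knockout replicates 1 to 3 had 1.49, 1.74 and 2.02 CPM. No library of one genotype came near the other, and Pcif1fl/fl replicate 3 was the highest by a wide margin. The control mean was 12.9-fold the knockout mean, a log2 fold change of -3.68 (SE 0.26) that was -3.40 without that replicate. On the annotated antisense strand, Gm14866 overlaps 17.3% of its exonic bases. Gdpd2 and Lpar4 are X-linked, and Xist also fell with genotype. Among the 456 X-linked genes tested, 14 were called lower, or 3.07%, and 7 higher, where 2.50% of all genes tested were called lower. Their median log2 fold change was -0.03, against 0.00 over all genes. The part of sex in the levels of Gdpd2 and Lpar4 was not tested.

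The remaining GDPD genes differed little. Gdpd5, whose product GDE2 cleaves glycosylphosphatidylinositol anchors at the cell surface, was at 33.6, 29.9 and 31.2 CPM in controls and at 37.0, 41.9 and 38.4 CPM in knockouts. The knockouts were higher without overlap, with a log2 fold change of 0.31 (SE 0.10). Gde1, which encodes a broadly expressed glycerophosphodiesterase, was at 69.3 to 75.0 CPM in controls and 68.6 to 81.6 CPM in knockouts, with overlap and a log2 fold change of 0.11 (SE 0.10). Gm45236 lies antisense to 13.5% of the exonic bases of Gde1. Summed per kilobase, the 5 GDPD genes were at 75.6 ± 1.22 CPM per kb (SD, n = 3) in controls against 76.6 ± 1.91 CPM per kb (SD, n = 3) in knockouts, with overlapping libraries, while the share of Gdpd3 in that sum went from 0.317% to 0.523% in controls to 7.41% to 7.68% in knockouts.

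Enpp2 (chromosome 15, 54838901 to 54952892), the autotaxin gene, was lower in every knockout library. Control replicates 1 to 3 had 14.3, 14.9 and 18.2 CPM and knockout replicates 1 to 3 had 7.74, 6.12 and 8.27 CPM. Pcif1fl/fl replicate 3 was again the highest, and the lowest control lay well above the highest knockout. The log2 fold change was -1.10 (SE 0.17), and it was -0.98, under the fold threshold, when either control replicate 3 or knockout replicate 2 was left out. The antisense gene Gm26684 overlaps 5.97% of its exonic bases.

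Plpp3 (chromosome 4, 105157347 to 105232764), which encodes a phosphatase that removes LPA and other lipid phosphates at the cell surface, was the most abundant of the 10 genes by CPM in controls. It was at 129, 116 and 140 CPM in control replicates 1 to 3 and at 55.4, 45.3 and 51.0 CPM in knockout replicates 1 to 3. The highest knockout library lay far below the lowest control library. The control mean was 2.54-fold the knockout mean, or -1.34 on the log2 scale (SE 0.11). Enpp2, which makes LPA, and Plpp3, which degrades it, were thus both lower in the same libraries. No annotated gene overlaps the exons of Plpp3.

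The 3 receptor genes differed by less. Lpar1 was at 79.2, 76.9 and 99.5 CPM in controls and at 67.7, 67.7 and 73.7 CPM in knockouts, lower without overlap. Its log2 fold change was -0.29 (SE 0.12) and -0.16 without Pcif1fl/fl replicate 3. Lpar4, the scarcest receptor of the 3, was at 4.11, 4.89 and 5.77 CPM in controls and at 3.38, 2.24 and 2.07 CPM in knockouts. These groups did not overlap either, and the log2 fold change was -0.94 (SE 0.24), or -1.19 and past the call threshold without knockout replicate 1. For Lpar6 the controls ran from 11.7 to 19.1 CPM and enclosed the knockouts, which ran from 13.1 to 14.5 CPM. The log2 fold change of Lpar6 was -0.11 (SE 0.18) and was 0.11 without Pcif1fl/fl replicate 3, the library in which Lpar6 was highest. Lpar6 lies within Rb1, on the other strand, and 7.56% of its exonic bases overlap exons of that gene. Per kilobase, Lpar1 made up 82.5% to 85.4% of the summed level of the 3 receptors in controls and 81.9% to 85.5% in knockouts, and this share of Lpar1 overlapped between genotypes.

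**Figure D2:**
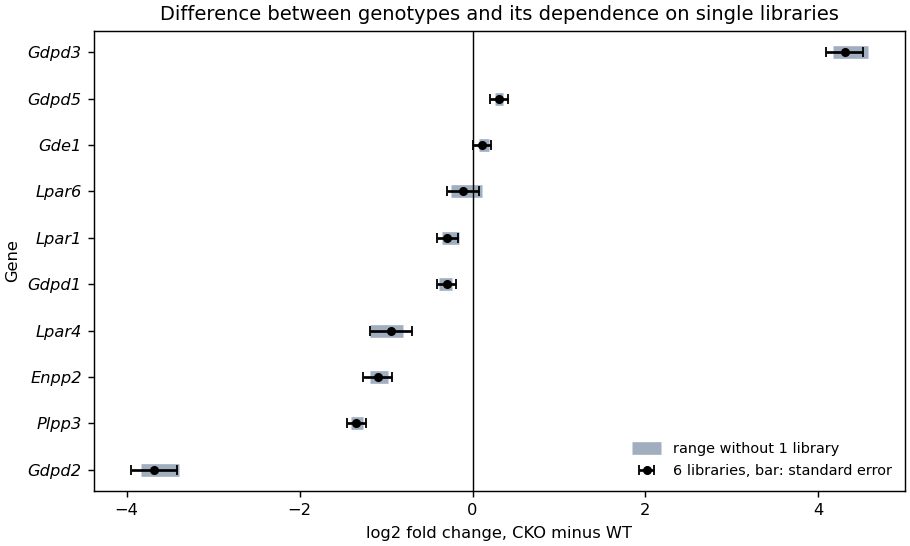
Log2 fold change of each gene (knockout minus control, dots) with the standard error of the fit as bars, and the range over the 6 fits that each leave out 1 library as a grey band. Gdpd3 at 4.31 and Gdpd2 at -3.68 lie apart from the other 8 genes, which lie between -1.34 and 0.31, and the band of Lpar6 crosses 0.

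All 10 genes passed the expression filter. Past an absolute log2 fold change of 1 and a Benjamini-Hochberg adjusted p under 0.05 from edgeR, the thresholds that define a called gene, 3 of the 10 were lower (Gdpd2, Enpp2 and Plpp3) and 1 was higher (Gdpd3), where over all genes tested 2.50% were called lower and 1.03% higher. The same 3 and 1 passed at an adjusted p under 0.05 and any fold change, where the shares over all genes were 4.51% and 2.88%. Without overlap between genotypes, 6 were lower and 2 higher, against 15.7% and 15.0% of all genes tested. Nothing is read from these counts, since the genes were picked on the same contrast. The genes just past and just short of the fold threshold were Enpp2 at -1.10 and Lpar4 at -0.94. The median log2 fold change of the 10 genes was -0.29, beside 0.00 over all genes tested.

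Ordered by level per kilobase, control cultures ranked Gde1 first, followed by Plpp3, Gdpd1, Lpar1, Gdpd2, Gdpd5, Lpar6, Enpp2, Lpar4 and Gdpd3. Gde1 and Plpp3 were not separated, at 42.2 ± 1.87 and 40.6 ± 3.85 CPM per kb (SD, n = 3), and neither were Gdpd1 and Lpar1, Gdpd2 and Gdpd5, or Lpar6 and Enpp2. In knockout cultures the order was Gde1, Gdpd1, Lpar1, Plpp3, Gdpd5, Gdpd3, Lpar6, Enpp2, Lpar4 and Gdpd2. Gdpd3 thus went from the bottom of the list, at 0.294 ± 0.0919 CPM per kb (SD, n = 3), to a level of 5.77 ± 0.0494 CPM per kb (SD, n = 3) that overlapped that of Gdpd5. Gdpd2 went from 4.88 ± 1.52 to 0.380 ± 0.0581 CPM per kb (SD, n = 3), the lowest of the 10. In the knockouts Lpar1 and Plpp3 overlapped as well, and the other neighbours in the order were separate.

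**Figure D3:**
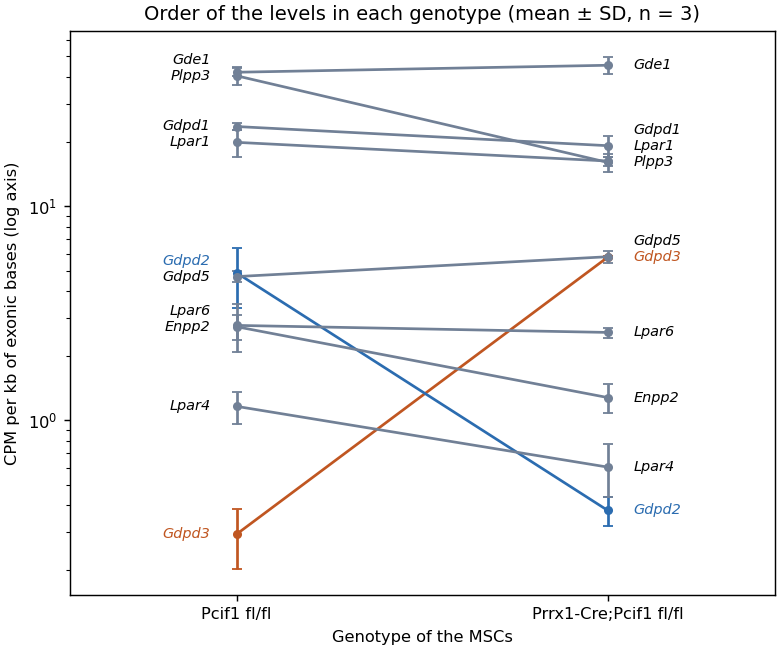
Mean level per kilobase of exonic sequence in each genotype on a log axis, with SD bars over 3 libraries and a line per gene. Gdpd3 (orange) goes from 0.294 to 5.77 CPM per kb while Gdpd2 (blue) goes from 4.88 to 0.380 CPM per kb, and Gde1 is at the top in both genotypes.

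The library with the most counts also had the highest level of most of the genes among controls. Pcif1fl/fl replicate 3 was the highest control for 6 of the 10 genes (Gdpd2, Enpp2, Lpar1, Lpar4, Lpar6 and Plpp3), as it was for 42.7% of all genes tested. Within a genotype, the highest library exceeded the lowest by 1.08-fold for Gde1 and 1.74-fold for Gdpd2 in controls, the extremes of the 10 genes. In knockouts this ratio ran from 1.02 for Gdpd3 to 1.63 for Lpar4.

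The levels of genes that mark stromal cells moved with genotype beside these values. In a bulk sample, fewer cells of a type and less RNA per cell cannot be told apart. Of the 12 markers of mesenchymal stromal cells and osteoblasts, Sp7, Eng and Alpl were called lower, with log2 fold changes of -1.88, -1.11 and -1.11, and Thy1 and Ly6a were called higher, with log2 fold changes of 1.52 and 1.12. Their summed level, mostly from collagen genes, was 7698 to 10164 CPM in controls and 13011 to 13873 CPM in knockouts. Reticular cells rich in Cxcl12 were followed by 6 markers, of which 4 (Cxcl12, Lepr, Kitl and Ebf3) were called lower and 0 higher, and the summed level was 3290 to 3747 CPM in controls and 665 to 768 CPM in knockouts. Of 7 adipocyte markers 4 (Adipoq, Plin1, Cidec and Pparg) were called lower, with Adipoq at a mean of 47.0 CPM (SD 5.96, n = 3) in controls against 0.824 CPM (SD 0.608, n = 3) in knockouts and Plin1 at 0 in every knockout library. The sum over the adipocyte markers overlapped, at 762 to 801 CPM and 662 to 863 CPM, and Lpl, Cebpa and Fabp4, which made up most of it, were not called. Among these, Fabp4 was higher in every knockout library, with a log2 fold change of 0.46 (adjusted p = 0.0545, edgeR). Lpl and Cebpa overlapped between genotypes, with log2 fold changes of 0.23 and -0.19 (adjusted p = 0.486 and 0.595, edgeR). The called markers of the reticular and adipocyte lists were lower, as were Enpp2, Plpp3 and Gdpd2, and the part of any of these 3 lists in those levels was not tested. Macrophage marker sums overlapped between genotypes, and of 10 markers 0 were called in either direction by edgeR or DESeq2, with 4 at an unadjusted p under 0.05 in edgeR. At any fold change, edgeR put 1 of them past its adjusted p, Fcgr1, with a log2 fold change of 0.89 (adjusted p = 0.00605), and DESeq2 put 3. The 3 epithelial markers summed to 0.772 to 1.27 CPM in controls and 1.71 to 2.94 CPM in knockouts, the direction of Gdpd3, with Krt8 at 0 in 5 of 6 libraries, and their part in its level was not tested. Krt19, the 1 epithelial marker that passed the filter, had a log2 fold change of 1.58 (adjusted p = 0.0557, edgeR) and was called higher by DESeq2. The endothelial sum was 29.3 to 43.3 and 27.9 to 33.0 CPM and the neutrophil sum 0.932 to 1.14 and 1.30 to 1.98 CPM, in controls and knockouts. Of 5 neutrophil markers 2 passed the filter, S100a8 and Camp. S100a8 was called higher, from 0.469 to 1.28 CPM (adjusted p = 0.0394, edgeR), which is also the direction of Gdpd3. Camp went the other way, with a log2 fold change of -0.59 (adjusted p = 0.608, edgeR), and overlapped between genotypes. The part of S100a8 in the level of Gdpd3 was not tested.

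Other genes of the pathway were taken from 8 lists written by role, with earlier results of these data known. They held 126 genes outside the 10, of which 106 passed the filter. With the same fit adjusted over all genes, 2 were called lower and 3 higher, where the shares over all genes tested were 2.50% and 1.03%. Of the 106 genes, 93 did not reach an adjusted p under 0.05 at any fold. The median log2 fold change of the 106 genes was 0.02. No gene was called among the 20 tested that make LPA or other lysophospholipids, the 15 acyltransferases, the 18 lysophospholipases and glycerophosphodiesterases or the 9 genes of sphingosine 1-phosphate metabolism, with list medians from -0.06 to 0.06. Of the 62 genes tested in these 4 lists, 0 reached an adjusted p under 0.05 in edgeR, while 10 had an unadjusted p under 0.05. DESeq2 called 0 of them in either direction and put 1 past its adjusted p at any fold, Gpam, at 39.6 CPM in controls and 30.3 CPM in knockouts. Gdpd4, another GDPD family member, had at most 2 counts in any library.

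Among 14 receptor genes tested, 1 was called higher and 0 lower. Gpr35, a receptor for which lysophosphatidic acids have been proposed as ligands, rose from 4.42 ± 0.427 to 12.5 ± 0.329 CPM (SD, n = 3), 2.83-fold by the means (adjusted p = 0.00049, edgeR). S1pr1, the main receptor for sphingosine 1-phosphate, was lower, at a mean of 118 against 63.7 CPM without overlap, past the adjusted p (0.0124, edgeR) but not the fold threshold, with a log2 fold change of -0.89. Of the other LPA receptors, Lpar5 had a log2 fold change of -0.44 (adjusted p = 0.0756, edgeR) and Lpar2 one of 0.34 (adjusted p = 0.62, edgeR), and Lpar3 did not pass the filter.

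Of 9 lipid phosphate phosphatases and relatives tested, only Plppr3 was called. It encodes a membrane protein of the same family that lacks the catalytic residues, and fell from 14.1 ± 0.680 to 5.64 ± 0.120 CPM (SD, n = 3), by log2 -1.32 (SE 0.13, adjusted p = 0.000585, edgeR). Plppr2, of the same subfamily, was lower without overlap, at a log2 fold change of -0.70 (adjusted p = 0.0171, edgeR), short of the fold threshold. Plpp1 and Plpp2, the closest relatives of Plpp3, had log2 fold changes of 0.09 and 0.29 (adjusted p = 0.727 and 0.601, edgeR) and overlapped between genotypes. Among the 4 relatives of autotaxin, Enpp3 was called lower, from 1.74 ± 0.637 to 0.614 ± 0.112 CPM (SD, n = 3), at a log2 difference of -1.49 (SE 0.37, adjusted p = 0.048, edgeR). That call was lost with the replicate number as a block (adjusted p = 0.0524, edgeR) and without control replicate 1 or any 1 knockout library, with adjusted p from 0.0209 to 0.176 over all alternatives. Enpp4 and Enpp5 were lower without overlap, past the adjusted p but not the fold threshold, with log2 fold changes of -0.57 and -0.55 (adjusted p = 0.0347 and 0.0494, edgeR). Enpp1, the pyrophosphate-generating enzyme of mineralizing cells, was at 63.0 ± 7.49 and 80.8 ± 3.27 CPM (SD, n = 3), with a log2 fold change of 0.36 (adjusted p = 0.0901, edgeR).

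Genes that respond to YAP or SRF, transcriptional regulators that LPA receptors can activate, were examined as possible targets. Like the other pathway lists, this one was written with earlier results of these data known, so its p-values are descriptive. Of 17 tested, 2 were called higher and 0 lower, where over all genes tested 1.03% were called higher and 2.50% lower. At any fold change 4 passed upward and 2 downward, where the shares over all genes were 2.88% and 4.51%. Ankrd1, a muscle ankyrin repeat protein gene, rose from 13.0 ± 2.20 to 34.2 ± 1.16 CPM (SD, n = 3), or 1.39 on the log2 scale (SE 0.14, adjusted p = 0.000712, edgeR). F3, the tissue factor gene, rose by 1.27 on the log2 scale (adjusted p = 0.0148, edgeR), a call lost in 3 alternative fits, without control replicate 2 or knockout replicate 1 or 2, with adjusted p from 0.000266 to 0.0786. Axl, a receptor tyrosine kinase gene, and Ccn2, a widely used YAP target, were higher without overlap but short of the fold threshold, with log2 fold changes of 0.80 and 0.57 (adjusted p = 0.00134 and 0.00702, edgeR). The contractile genes Myl9 and Tpm1 were lower, with log2 fold changes of -0.40 and -0.41 (adjusted p = 0.0357 and 0.0274, edgeR). The list median was 0.15.

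**Figure D4:**
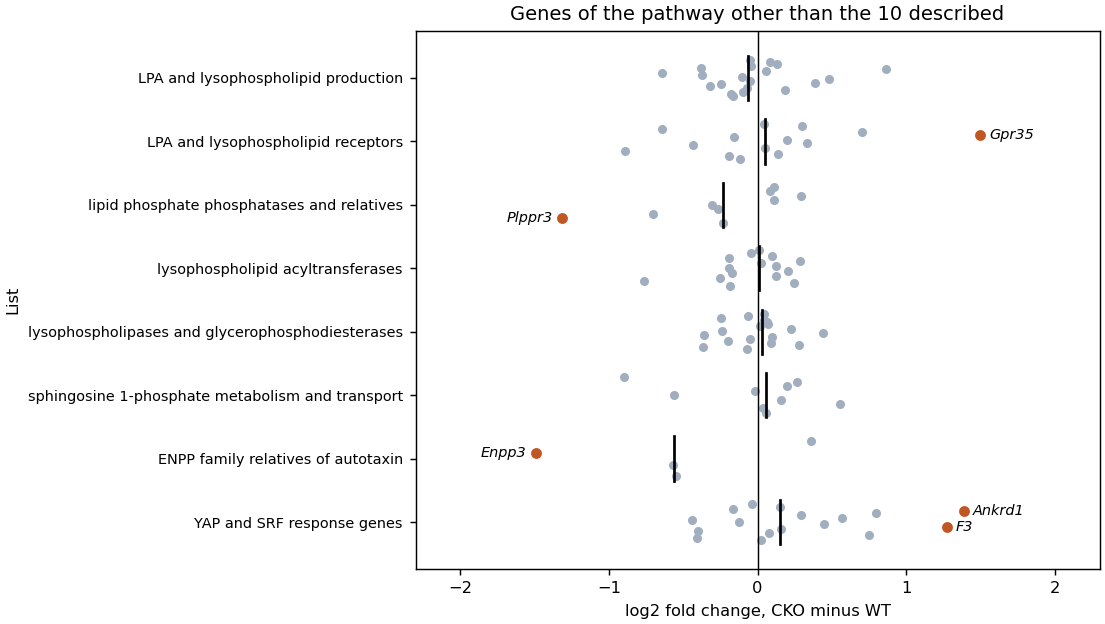
Log2 fold change (knockout minus control) of the tested genes of each pathway list, with called genes in orange and named, the others in grey and the list median as a line. Of 106 genes, 2 called lower and 3 called higher stand out, and list medians lie between -0.56 for the ENPP relatives and 0.15 for the YAP and SRF response genes.

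The genes around Gdpd3 on chromosome 7 were compared in the same fit, since position was not part of the choice. Mapk3, the ERK1 gene, ends 514 bases before the start of Gdpd3 and had 171, 158 and 236 CPM in controls against 162, 154 and 154 CPM in knockouts. Its log2 fold change was -0.27 (adjusted p = 0.344, edgeR). Ypel3 begins 1305 bases after the end of Gdpd3 and had a log2 fold change of -0.23 (adjusted p = 0.507, edgeR). Both flanking genes had lower means in the knockouts, and both overlapped between genotypes. The log2 fold change was -0.07 for Mapk3 without Pcif1fl/fl replicate 3 and -0.06 for Ypel3 without Pcif1fl/fl replicate 1. The differences (log2) of the next genes tested were 0.74 for Coro1a, higher without overlap (adjusted p = 0.174, edgeR), 0.47 for Bola2, 0.22 for Ppp4c and 0.07 for Aldoa (adjusted p = 0.243, 0.596 and 0.738, edgeR). Without Pcif1fl/fl replicate 3, Coro1a had a log2 fold change of 0.44 (adjusted p = 0.00201, edgeR) and Ypel3 one of -0.42 (adjusted p = 0.00165, edgeR), both short of the fold threshold. Without Pcif1fl/fl replicate 1, Bola2 had a log2 fold change of 0.75 (adjusted p = 0.0397, edgeR), also short of it.

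**Figure D5:**
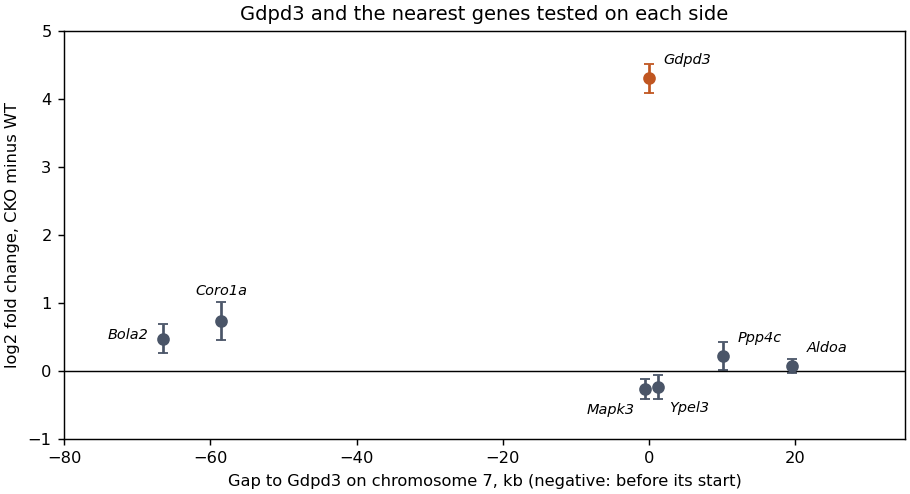
Log2 fold change (knockout minus control) with its standard error for Gdpd3 (orange) and for the 3 nearest tested genes on each side, against the gap to Gdpd3 in kb. Gdpd3 is at 4.31, and the 6 neighbours lie between -0.27 and 0.74.

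Genes with the pattern most like that of Gdpd3 were ranked by the root mean square difference between log2 CPM profiles, each centred on its mean over the 6 libraries. The nearest was G530011O06Rik on chromosome X, at a difference of 0.52, followed by Eno1b at 0.77, Erdr1, placed on chromosome Y by the annotation, at 0.78, Crct1 at 0.81 and Angptl7 at 0.97. All 5 were higher in every knockout library than in any control library, which follows from the choice by profile. For G530011O06Rik and Erdr1 only the annotated chromosome is given, and whether their levels follow the sex of the cells was not tested. Eno1b, an enolase gene with a close paralog in Eno1, had means of 5.58 CPM (SD 1.67, n = 3) in controls against 35.3 CPM (SD 2.06, n = 3) in knockouts, and its reads may be shared. Crct1 had 1 count in each control library, Angptl7 had 3 to 6 and G530011O06Rik had 12 to 16. Gdpd3 itself had 14 to 20, so these distances rest on few reads. Measured the same way, the genes nearest to Enpp2 were Rnf125 at 0.08, Mdga1 at 0.10, Ildr2 at 0.12, Ksr1 at 0.12 and Alpl at 0.12. The distance is not scaled by the size of the difference, so the values for Gdpd3 and Enpp2 cannot be compared. Alpl, the alkaline phosphatase gene of mineralizing cells, had means of 91.8 CPM (SD 5.84, n = 3) in controls against 42.6 CPM (SD 3.44, n = 3) in knockouts. With 3 libraries a genotype, the profiles hold few points beyond the difference between genotypes.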

How the data were processed

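Per the labels and the methods, poly(A) RNA of MSC cultures was sequenced, mapped by the authors to mm10 with HISAT2, and deposited as raw read counts per gene for 6 libraries. How reads were counted, on which annotation and whether by strand, is not given in the sources used here. Of 20163 rows, 92 repeated an Ensembl ID with the same counts and were dropped. The genotypes were compared with the quasi-likelihood test of edgeR 4.0.16 (R 4.3.3) without covariates, after TMM scaling and filterByExpr, which left 13733 genes, with Benjamini-Hochberg adjustment over them. A gene was called at an adjusted p under 0.05 and a log2 fold change of 1 or more in size. CPM were TMM-scaled, standard errors are the log2 fold change over the square root of F, and log2 CPM profiles used a prior count of 2. Positions and exonic lengths came from GENCODE M21 (GRCm38). The 10 genes, the 8 pathway lists and the 7 marker lists were chosen with earlier results of these data known, and 1 list gene is not reported here. Named were the 10 genes, called genes of each pathway list (at most 5), the 5 genes nearest in profile to Gdpd3 and Enpp2, 3 tested genes on each side of Gdpd3, and Pcif1, Xist and Y-linked genes. All marker genes, and the pathway genes S1pr1, Lpar2, Lpar3, Lpar5, Gdpd4, Plpp1, Plpp2, Plppr2, Enpp1, Enpp4, Enpp5, Gpam, Axl, Ccn2, Myl9 and Tpm1, were named after their values were seen. Libraries of one genotype differed by a chi-square per gene above sampling noise. It was 82.9 and 98.6 for the pairs that hold Pcif1fl/fl replicate 3 and 2.83 to 10.1 for the others. On simulated counts, 200 genes drawn above a minimum mean count were changed, with a median fitted log2 fold change of 2.01 in size. Of these edgeR recovered 200, with 3 false calls among 13683 genes tested. Changes in genes with few counts, and smaller changes, were not planted, so their recovery was not tested. Alternatives were DESeq2 1.42.0, RLE or total-count scaling, no filter, a mean of at least 10 counts, the replicate number as a block, any fold change and leaving out each library.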

Additional observations from a re-analysis of the deposited data

How the results depend on the processing

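No log2 fold change of the 10 genes moved by more than 1 SD between replicates in any alternative fit, and without 1 library they ran from 4.17 to 4.57 for Gdpd3 and from -3.83 to -3.40 for Gdpd2. The sign of Lpar6 changed without Pcif1fl/fl replicate 3. The number of the 10 genes called lower ranged from 2 to 4 without 1 library, being 2 without Pcif1fl/fl replicate 3 or Prrx1-Cre;Pcif1fl/fl replicate 2, where Enpp2 was not called, and 4 without Prrx1-Cre;Pcif1fl/fl replicate 1, where Lpar4 was. Over all genes, leaving out 1 library gave 253 to 385 lower and 89 to 229 higher calls, against 343 and 142 with 6 libraries, the most without Pcif1fl/fl replicate 3. At any fold change 620 were lower and 396 higher. Of the pathway genes outside the 10, 1 to 3 were called lower and 2 to 3 higher without 1 library, and 8 lower and 5 higher at any fold change. The replicate numbers did not pair the libraries: same-numbered libraries had deviations correlated at 0.0554, -0.045 and -0.013, and with the replicate number as a block 1 of these pathway genes was called lower, because Enpp3 was lost, with 326 lower and 126 higher calls over all genes. Without 1 library, the log2 fold change of Ppp4c ran from -0.0086 to 0.42 and that of Aldoa from -0.0043 to 0.13, both reversed in sign without Pcif1fl/fl replicate 3 and never past the threshold. The causes of these changes were not tested. Gdpd3 rests on 14 to 20 counts per control library, which limits the precision of its ratio.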
